A study of Rattus norvegicus with 12 samples.

Results

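The 10 genes described here encode the Id proteins and the bone morphogenetic protein (BMP) pathway that induces them: Id1, Id2, Id3, Id4, Bmp4, Bmpr1a, Bmpr1b, Bmpr2, Smad6 and Smad7. They were chosen by symbol, 10 of the 30562 genes of the deposited count table. The choice was made with earlier results of these data known, so the adjusted p-values of these genes are no independent support. The rule's only measured value, the total count that picks between rows of a repeated symbol, was not needed, since each symbol had 1 row. The libraries were bulk RNA-seq of oligodendrocyte precursor cells (OPCs), the dividing cells that give rise to myelinating oligodendrocytes, isolated from the cerebral cortex of newborn wild-type Sprague-Dawley rats and grown with the mitogens FGF-2 and PDGF-AA. In 6 libraries the cells had been kept at a fraction of inspired oxygen (FiO2) of 5% (mild-hypo-OPCs), and in 6 libraries at room air (standard OPCs). The sample labels give an exposure of 6 h and the methods describe 6 days, so the duration is uncertain. No label says that the 6 libraries of a group came from separate cultures, and a figure legend counts 3 biological replicates per group. An n of 6 below therefore means libraries, some of which may share a culture, and the p-values below measure only the spread between libraries, which may be partly technical.

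Sequencing depth differed between the groups, and this applies to every comparison below. Totals ran from 4111669 to 9022324 counts (median 4915674.5) over the 6 mild-hypo-OPC libraries, but only from 1356079 to 2797513 (median 1952621) over the 6 standard OPC libraries, with no overlap, so depth and condition cannot be told apart. Mild-hypo-OPC replicate 1 held the largest total, 9022324 counts, and the next largest was 5474102. Ribosomal RNA genes took 17.4% to 25.2% of the counts under mild hypoxia and 23.9% to 38.4% at room air. Values are given as CPM, the count scaled to a common library size after TMM scaling, a factor that corrects for differences in library composition. CPM does not correct for transcript length, so levels are compared between conditions and not between genes. A gene was tested when its CPM before TMM scaling exceeded 10 in at least 1 library, which left 8938 genes. The median TMM factor was 1.17 in mild-hypo-OPCs and 0.84 in standard OPCs, so this limit lies at a lower scaled CPM in mild-hypo-OPCs. A gene was called when the Benjamini-Hochberg adjusted p of edgeR's quasi-likelihood test over those 8938 genes was under 0.05. In bulk RNA, fewer cells of a type and less RNA per cell cannot be told apart.

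BMPs are secreted ligands that bind paired type I and type II receptor kinases. The activated type I receptor phosphorylates SMAD1, SMAD5 and SMAD9, which join SMAD4 in the nucleus and switch on target genes, among them the Id genes and the inhibitory SMADs that close a feedback loop. Id proteins have a helix-loop-helix domain but no DNA-binding region, and they hold E proteins and their partners in inactive pairs. In cultured OPCs, BMP is known for blocking oligodendrocyte differentiation and favouring an astrocyte fate, and Id2 and Id4 are known inhibitors of that differentiation.

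The proximal promoters of the 3 Id genes that were called are printed because their transcripts were lower together, and that of Bmp4, the ligand, is printed for comparison because it was not called. Each is the 200 bases from position -250 to -51 before the RefSeq start, on rat assembly GRCr8, 5′ to 3′ on the gene's strand. The windows lie at chr3:161671314-161671513 (plus strand) for Id1, chr6:47471046-47471245 (minus) for Id2, chr5:153656041-153656240 (plus) for Id3 and chr15:22101984-22102183 (minus) for Bmp4. Capitals mark matches on either strand to 4 motifs. GGCGCC is a GC-rich SMAD-binding element. GGAGCC is a second such element, which reads as GGCTCC when it lies on the opposite strand. CACGTG is the first E-box searched, the kind of site that helix-loop-helix factors bind. CAGCTG is the other E-box.
Id1: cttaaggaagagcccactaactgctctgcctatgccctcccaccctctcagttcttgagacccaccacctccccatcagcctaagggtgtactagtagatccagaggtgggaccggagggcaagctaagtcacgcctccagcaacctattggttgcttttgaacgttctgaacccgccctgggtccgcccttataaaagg
Id2: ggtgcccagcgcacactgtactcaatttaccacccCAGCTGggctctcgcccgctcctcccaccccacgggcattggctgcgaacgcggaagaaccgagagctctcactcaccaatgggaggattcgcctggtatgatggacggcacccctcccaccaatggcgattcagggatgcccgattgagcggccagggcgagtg
Id3: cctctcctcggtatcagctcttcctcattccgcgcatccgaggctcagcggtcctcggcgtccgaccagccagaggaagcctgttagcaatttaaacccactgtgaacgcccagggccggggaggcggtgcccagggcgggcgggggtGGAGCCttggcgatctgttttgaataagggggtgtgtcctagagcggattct
Bmp4: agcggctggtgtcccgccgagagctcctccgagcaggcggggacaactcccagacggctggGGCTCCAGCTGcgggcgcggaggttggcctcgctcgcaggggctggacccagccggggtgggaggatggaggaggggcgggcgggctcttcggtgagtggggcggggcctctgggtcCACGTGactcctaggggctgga
The Id1 window held none of the 4 motifs. The Id2 window held CAGCTG, starting at -215, and the Id3 window held GGAGCC, starting at -102. In the Bmp4 window GGCTCC at -189 overlapped CAGCTG at -184, and CACGTG stood at -72. Among the same window of all 33469 promoters in the table, 6.56% held GGCGCC, 18.4% held GGAGCC or its complement, 4.18% held CACGTG and 9.44% held CAGCTG. The GC content was 55.5% for Id1, 63.5% for Id2, 62.5% for Id3 and 74% for Bmp4, and the median over all windows was 51%. These matches are letters in a window and not measured binding sites. Of the 10 genes, 8 had a promoter in the table, and the windows of Id4, Bmpr1a and Bmpr2 held none of the 4 motifs, whereas that of Smad7 held GGCGCC at -96.

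The 3 Id genes with enough counts to be tested, Id1, Id2 and Id3, were all lower in mild-hypo-OPCs, by 32.1% to 47.4%, and neither the ligand Bmp4, nor the 2 receptors tested, nor Smad7 was called. Of the 10 genes, 7 were tested, 3 were called lower and 0 were called higher; 0 were higher at an unadjusted p under 0.05 by edgeR, limma-voom or DESeq2. Across all genes tested, 17.0% were called lower and 7.00% higher. The median log2 fold change was -0.17 over the 7 genes and -0.003 over all 8938.

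Id2 (ENSRNOG00000007237) showed the largest log2 fold change of the 7 genes tested. Its level ranged from 46.2 to 52.9 CPM (median 50.9) in mild-hypo-OPCs and from 73.4 to 112.3 CPM (median 100.7) in standard OPCs. Every mild-hypo-OPC library lay below every standard OPC library. The means were 50.2 ± 2.77 and 96.5 ± 14.9 CPM (SD, n = 6 each), a log2 fold change of -0.93 (SE 0.10, 95% interval -1.13 to -0.73, edgeR adjusted p = 3.82e-05). The standard OPC libraries spread more widely, and the lowest of them, replicate 2, still exceeded the highest mild-hypo-OPC library by 73.4 to 52.9 CPM. Raw counts of Id2 ran from 255 to 475 under mild hypoxia and from 122 to 220 at room air.

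Id1 (ENSRNOG00000021750), known also for its part in endothelial and stem cell biology, likewise separated the groups. It ranged from 14.7 to 20.5 CPM (median 18.9) in mild-hypo-OPCs and from 24.0 to 38.9 CPM (median 28.1) in standard OPCs. The highest mild-hypo-OPC library, replicate 6, lay under the lowest standard OPC library, replicate 5. The means were 18.4 ± 2.04 and 29.7 ± 6.34 CPM (SD, n = 6 each), a log2 fold change of -0.67 (SE 0.13, 95% interval -0.95 to -0.39, edgeR adjusted p = 0.00141). Counts were small, 96 to 141 per library under mild hypoxia and 36 to 63 at room air. Of all genes tested, 5.40% had every mild-hypo-OPC library below every standard OPC library, and Id1 and Id2 were the 2 of the 10 genes that did.

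Id3 (ENSRNOG00000026124), which is often induced together with Id1, overlapped between the groups. It ranged from 25.7 to 37.8 CPM (median 35.7) in mild-hypo-OPCs and from 32.1 to 64.0 CPM (median 54.1) in standard OPCs. The overlap came from a single standard OPC library, replicate 1, at 32.1 CPM, and the other 5 stood at 40.1 CPM or above. The means were 33.9 ± 4.46 and 51 ± 13.0 CPM (SD, n = 6 each), a log2 fold change of -0.56 (SE 0.15, 95% interval -0.87 to -0.25, edgeR adjusted p = 0.0102).

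Id4 (ENSRNOG00000016099), the fourth family member, stayed under the filter in every library, with at most 9.61 CPM before TMM scaling. Each mild-hypo-OPC library held 35 to 69 of its counts and each standard OPC library 8 to 23. The scaled level was 5.81 to 7.99 CPM in mild-hypo-OPCs and 5.28 to 11.4 CPM in standard OPCs, and the groups overlapped. In a fit without the filter its log2 fold change was -0.11 (SE 0.21, edgeR adjusted p = 0.759).

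**Figure D1:**
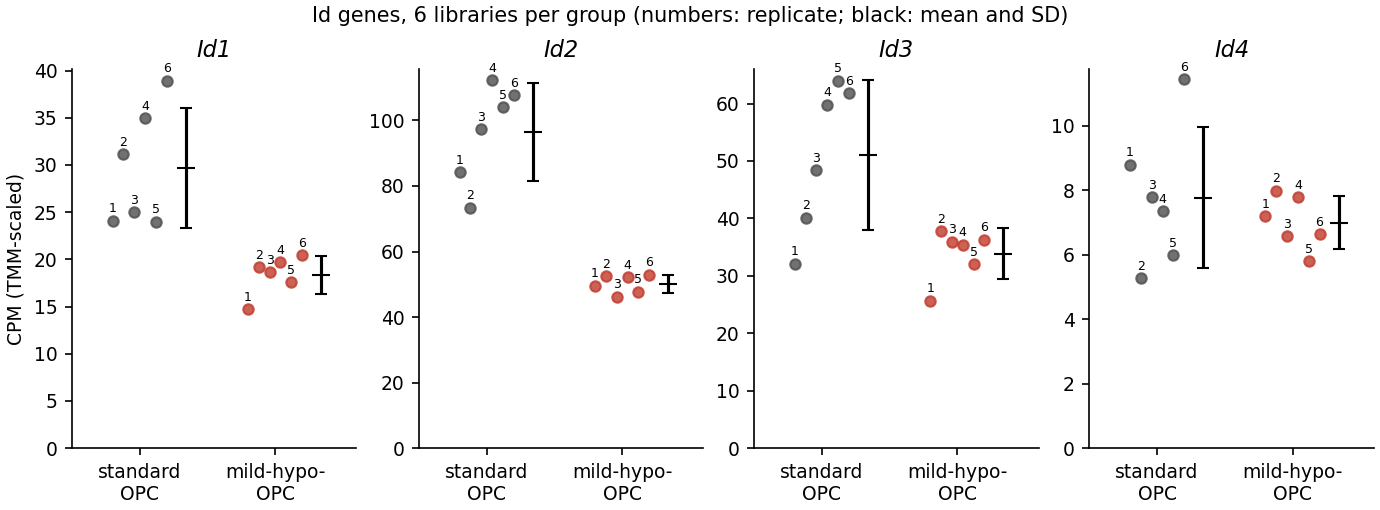
CPM (TMM-scaled, linear axis from 0) of the 4 Id genes in each of 12 libraries, with the mean and SD of each group (6 libraries). For Id1 and Id2 all mild-hypo-OPC points sit below all standard OPC points, for Id3 only standard OPC replicate 1 (32.1 CPM) falls among them, and for Id4 the groups overlap.

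The size of the Id differences varied with the libraries used. In standard OPCs the 3 libraries of replicates 1 to 3, which are the 3 deepest, averaged 26.8 CPM for Id1, 85 for Id2 and 40.2 for Id3, and replicates 4 to 6 averaged 32.6, 108 and 61.9 CPM. In mild-hypo-OPCs Id3 averaged 33.2 CPM in replicates 1 to 3 and 34.6 CPM in replicates 4 to 6. With replicates 1 to 3 alone, Id2 remained called (log2 fold change -0.76, adjusted p = 0.00258), and Id1 (-0.60, adjusted p = 0.0633) and Id3 (-0.25, adjusted p = 0.468) were not, by edgeR. With replicates 4 to 6 alone all 3 were called, at -0.74, -1.07 and -0.84 for Id1, Id2 and Id3 (edgeR adjusted p = 0.00757, 7.26e-07 and 0.000112). Leaving out any 1 of the 12 libraries kept all 3 calls, with log2 fold changes of -0.74 to -0.57 for Id1, -1.0 to -0.88 for Id2 and -0.68 to -0.45 for Id3.

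The part that depth had in the Id differences could not be measured, since the groups do not overlap in depth. Bringing all totals to the same size evens out the counts only, and not other properties of a library that may go with its depth. After every library was thinned at random to the smallest total, the log2 fold changes were -0.69 for Id1, -1.02 for Id2 and -0.52 for Id3, and all 3 were called (edgeR adjusted p = 0.00931, 2.63e-05 and 0.03). With the log2 total count as a covariate, which correlates with the condition at r = 0.897 over the 12 libraries, none was called: Id1 stood at -0.05 (adjusted p = 0.997), Id2 at -0.57 (adjusted p = 0.273) and Id3 at 0.39 (adjusted p = 0.697), by edgeR. That fit called 0 genes higher and 43 lower among all 8938.

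**Figure D2:**
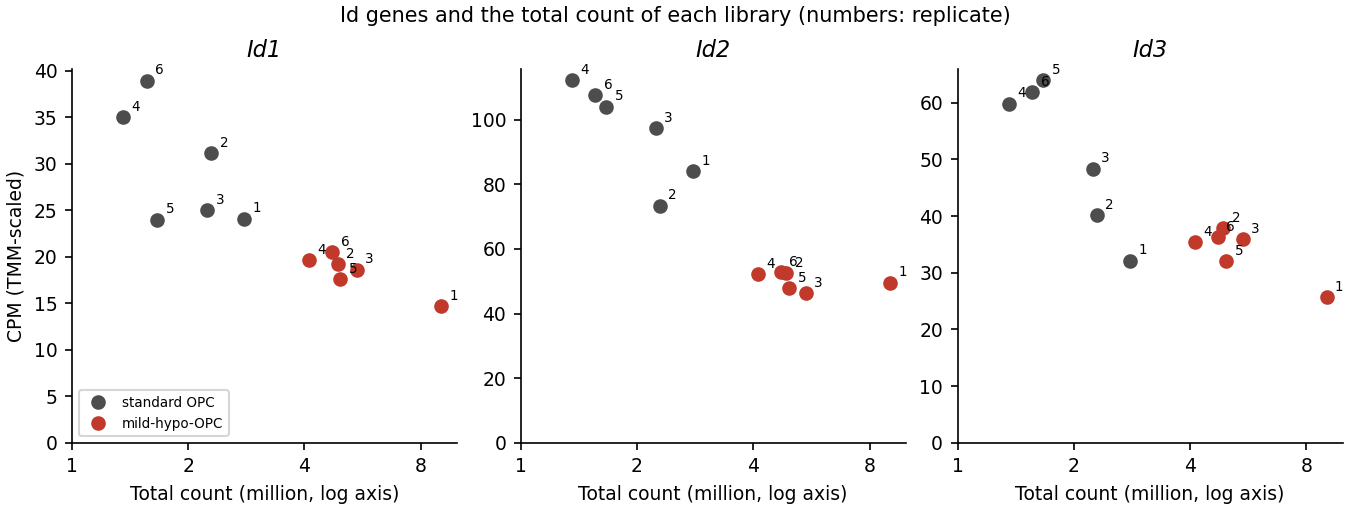
CPM (TMM-scaled) of Id1, Id2 and Id3 against the total count of each library (log axis), 1 point per library with its replicate number. The 6 standard OPC libraries (1356079 to 2797513 counts) and the 6 mild-hypo-OPC libraries (4111669 to 9022324) occupy separate parts of the depth axis, and within standard OPCs the deepest library, replicate 1, is the lowest for Id3.

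The 3 called Id genes are short, and short genes were lower in mild-hypo-OPCs in general. By the RefSeq gene span, introns included, on assembly GRCr8, which is not the assembly the reads were aligned to, Id1 spans 1167 bases, Id2 1834 and Id3 1608. A span was found for 95.59% of the tested genes. Of the 855 shortest genes, with spans up to 4552 bases, 43.7% were called lower and 2.81% higher, and their median log2 fold change was -0.34. Over the 855 longest genes the median was 0.03. A smooth trend of log2 fold change on span gave -0.53 at Id1, -0.42 at Id2 and -0.45 at Id3, so that -0.14, -0.51 and -0.11 remained for the 3 genes when it was subtracted. This subtraction was added after the data were seen and has no test. Other short genes of the lineage lay above the trend. Olig1, a transcription factor of oligodendrocyte maturation that spans 2143 bases, had a log2 fold change of 0.02 (SE 0.08, edgeR adjusted p = 0.863), 0.41 above it. Olig2, the lineage-defining factor with a span of 3377 bases, had 0.08 (adjusted p = 0.403), 0.39 above it. Hey1, a BMP and Notch target that spans 2523 bases, stood at -0.20 (adjusted p = 0.288), 0.15 above it.

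**Figure D3:**
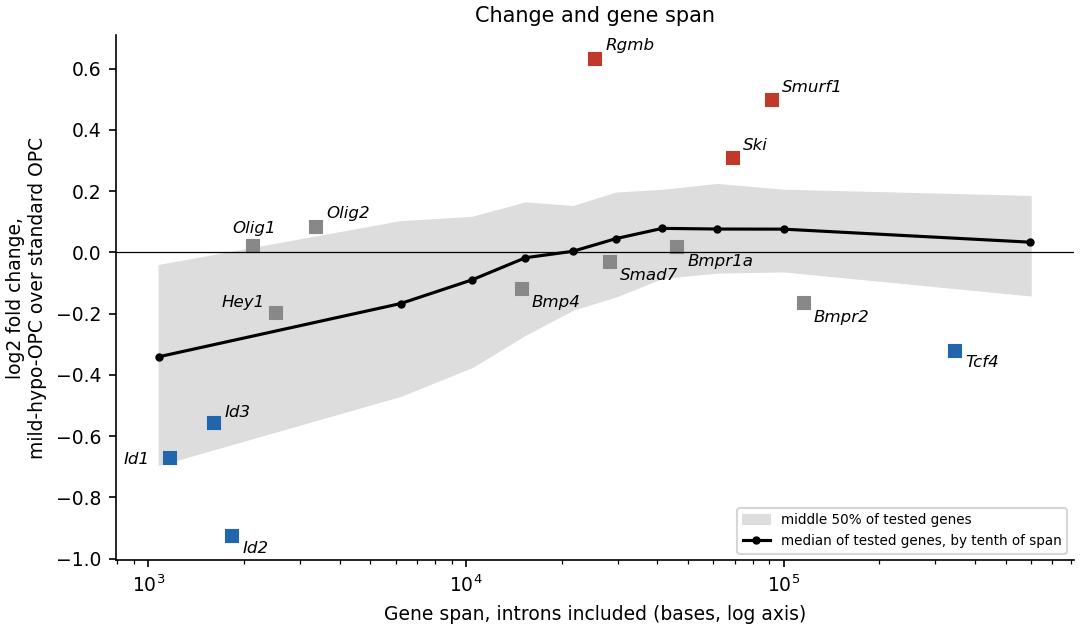
Log2 fold change (mild-hypo-OPC over standard OPC) against gene span with introns (bases, log axis); squares are named genes (blue called lower, red called higher, grey not called), and the line and grey band are the median and the middle 50% of tested genes in 10 groups of 854 or 855 by span. Id1, Id2 and Id3 lie below the line at the short end, where the median is -0.34, with Id2 also below the band, and Olig1, Olig2 and Hey1 lie above the line.

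Bmp4 (ENSRNOG00000009694), the pathway's ligand, was well measured and was not called. It ranged from 178 to 209.4 CPM (median 197) in mild-hypo-OPCs and from 183 to 250.1 CPM (median 213.6) in standard OPCs. The groups overlapped, and 4 of the 6 standard OPC libraries lay above every mild-hypo-OPC library. The means were 196.5 ± 10.7 and 212.7 ± 24.9 CPM (SD, n = 6 each), and the log2 fold change of -0.12 had a 95% interval of -0.29 to 0.05 (SE 0.08, edgeR adjusted p = 0.318). That interval leaves out a decrease as large as the fitted value of Id1, Id2 or Id3.

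Of the receptors, the type I receptor Bmpr1a (ENSRNOG00000052469) had 47.2 to 67.7 CPM (median 60.7) in mild-hypo-OPCs and 52.6 to 68.1 CPM (median 58.9) in standard OPCs. Its log2 fold change was 0.02 (SE 0.10, 95% interval -0.19 to 0.22, edgeR adjusted p = 0.925). The type II receptor Bmpr2 (ENSRNOG00000022196), which activates the type I partner, had 51.7 to 68.4 CPM (median 56.6) and 60.6 to 75.1 CPM (median 64.2). Its log2 fold change was -0.17 (SE 0.10, 95% interval -0.36 to 0.03, edgeR adjusted p = 0.221). Both receptors overlapped between the groups. The other type I receptor, Bmpr1b (ENSRNOG00000016289), had 5 counts over the 6 mild-hypo-OPC libraries and 3 over the 6 standard OPC libraries, so no fold is given.

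The inhibitory SMADs, which BMP signalling induces and which in turn damp the receptors, were scarce. Smad7 (ENSRNOG00000018359) ranged from 9.47 to 13.5 CPM (median 11.4) in mild-hypo-OPCs and from 7.63 to 16.4 CPM (median 9.79) in standard OPCs. The standard OPC libraries ran both above and below those of mild-hypo-OPCs, and replicates 1 to 3 averaged 13.2 CPM against 9.03 CPM in replicates 4 to 6. The log2 fold change was -0.03 (SE 0.18, 95% interval -0.40 to 0.34, edgeR adjusted p = 0.926), and it changed sign under other scalings. Smad6 (ENSRNOG00000009173) had 20 counts over the mild-hypo-OPC libraries and 9 over the standard OPC libraries, and 3 of the 6 standard OPC libraries had a count of 0. In those 3 libraries, replicates 2, 3 and 6, a count of 0 allows up to 1.58 to 2.29 CPM, for counting error only.

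**Figure D4:**
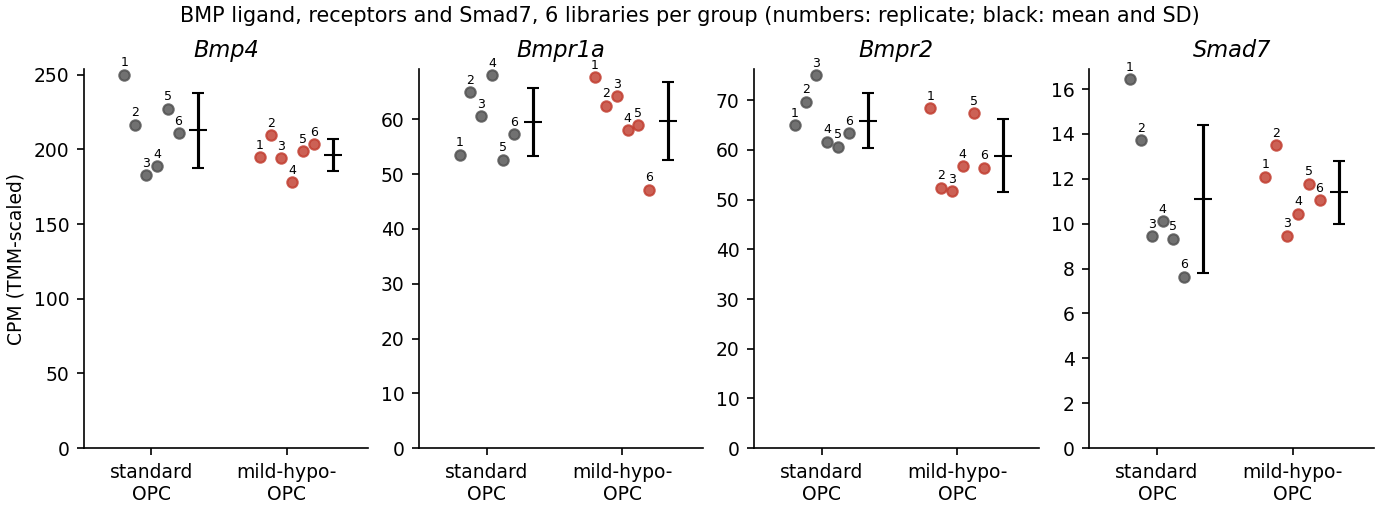
CPM (TMM-scaled, linear axis from 0) of Bmp4, Bmpr1a, Bmpr2 and Smad7 in each of 12 libraries, with the mean and SD of each group (6 libraries). The 2 groups overlap for all 4 genes; Bmp4 stands between 178 and 250.1 CPM.

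Ratios of counts within a library do not depend on how the libraries are scaled. Per 100 counts of Bmp4, mild-hypo-OPC libraries had 23.8 to 29.3 counts of Id2 and standard OPC libraries 33.6 to 59.5. Per 100 counts of Bmpr2 the corresponding ranges were 70.9 to 100 and 105.3 to 182.1, and per 100 counts of Bmpr1a 72 to 112.1 and 113 to 197.5. Id2 was thus lower relative to each of the 3 genes in every mild-hypo-OPC library than in any standard OPC library. The trend on gene span is not removed from these ratios. Id2 spans 1834 bases, and Bmp4, Bmpr1a and Bmpr2 span 14955, 46111 and 115412. Id1 overlapped relative to Bmpr1a (21.7 to 43.4 against 41.3 to 68 per 100 counts), and also relative to Bmp4 (7.54 to 11.0 against 9.63 to 18.5). Relative to Bmpr2 Id1 overlapped as well (21.5 to 36.6 against 33.3 to 61.45). Id3 overlapped relative to each of the 3 genes. Its ranges were 13.2 to 19.9 against 12.8 to 31.7 per 100 counts of Bmp4. Per 100 counts of Bmpr1a they were 37.9 to 76.95 against 60 to 121.5, and of Bmpr2 37.5 to 72.2 against 49.4 to 105.5. Between the Id genes themselves the ratios overlapped: per 100 counts of Id3 mild-hypo-OPC libraries had 128.6 to 193.1 counts of Id2 and standard OPC libraries 162.5 to 261.9.

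Within groups, Id2 and Id3 moved together across libraries more than either did with Id1. The Pearson r of log2 CPM centred within each group was 0.746 for Id2 and Id3, 0.537 for Id1 and Id3 and 0.318 for Id1 and Id2 over the 12 libraries, which share their depths, and the r of Id3 with Smad7 was -0.781. These are descriptions only. Among 7777 genes with a mean of at least 10 CPM, the 3 whose centred levels followed Id2 most closely were Uxt (r = 0.940), Btbd10 (0.932) and Arl2 (0.931). For Id3 they were the ribosomal protein gene Rpl9 (0.978), Sec61g (0.971), a subunit of the protein translocation channel, and Memo1 (0.969). For Id1 they were Chst10 (0.913), Map1lc3a (0.900), which encodes an autophagosome protein, and Ltbr (0.879). Of these 9 genes, 5 were themselves called lower in mild-hypo-OPCs, beside 17.0% of all genes tested. They were Uxt (log2 fold change -0.61), Arl2 (-0.52), Rpl9 (-1.57), Sec61g (-1.61) and Memo1 (-0.70). Chst10 was called higher (0.40), beside 7.00% of all genes, and Map1lc3a (-0.32), Ltbr (-0.07) and Btbd10 (-0.10) were not called.

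The rest of the BMP pathway was described with 5 lists of 56 further genes, of which 23 were tested. Of these, 3 were called higher in mild-hypo-OPCs and 0 lower, beside 7.00% and 17.0% of all genes, and the median log2 fold change was 0.13. At an unadjusted p under 0.05, 1 of the 23 was lower by each of edgeR, limma-voom and DESeq2. None of the 12 other BMP ligands was tested, and 6 of them had no count in any library; Bmp2 had 54 counts over all libraries and Bmp7 53.

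Among the 9 other receptors and co-receptors, 5 were tested and 1 was called. This was Rgmb, a membrane-anchored co-receptor that binds BMPs, with 8.30 to 10.7 CPM (median 9.23) in mild-hypo-OPCs and 4.58 to 7.39 CPM (median 6.00) in standard OPCs. Every mild-hypo-OPC library stood above every standard OPC library, as for 2.94% of all genes. The log2 fold change was 0.63 (SE 0.18, edgeR adjusted p = 0.0152), on counts of only 6 to 18 in standard OPCs. Rgmb passed the filter only through mild-hypo-OPCs, the group in which it was higher, so its call and its separation of the groups are no support for a difference. It was not called after thinning (0.29, adjusted p = 0.515), with replicates 1 to 3 alone (0.57, adjusted p = 0.243) or with replicates 4 to 6 alone (0.80, adjusted p = 0.126). Neo1, the receptor for the Rgm proteins, had 141 ± 11.6 and 121 ± 23.3 CPM (SD, n = 6 each) and was not called (log2 fold change 0.21, SE 0.11, edgeR adjusted p = 0.157). The type I receptor Acvr1 was not called either (0.19, adjusted p = 0.482).

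Of the 15 SMADs and SMAD regulators, 14 were tested and 2 were called higher. Smurf1, a ubiquitin ligase that targets SMAD1 and SMAD5, ranged from 89.4 to 104.7 CPM (median 97.2) in mild-hypo-OPCs and from 50.6 to 95.1 CPM (median 62.2) in standard OPCs. A single standard OPC library, replicate 2, lay within the mild-hypo-OPC range. Its log2 fold change was 0.50 (SE 0.11, edgeR adjusted p = 0.00397), and with replicates 1 to 3 alone it was 0.28 and not called (adjusted p = 0.254). Ski, a co-repressor that binds SMAD complexes, had 72.4 to 84.8 CPM (median 79.3) and 50.6 to 78.6 CPM (median 63.2), a log2 fold change of 0.31 (SE 0.09, edgeR adjusted p = 0.0206). Ski was not called with replicates 1 to 3 alone (0.31, adjusted p = 0.137), with replicates 4 to 6 alone (0.34, adjusted p = 0.102) or after thinning (0.27, adjusted p = 0.101), at log2 fold changes of about the same size. Other genes of the list known to restrain SMAD signalling were not called, with log2 fold changes of -0.36 for Tob1 (95% interval -0.64 to -0.07, adjusted p = 0.0643), -0.21 for Ppm1a, -0.21 for Lemd3, -0.03 for Smurf2, -0.04 for Nedd4l and 0.14 for Skil. The signal-carrying SMADs were not called: Smad1 stood at 0.17 (adjusted p = 0.397), Smad5 at 0.10 (0.591), Smad9 at -0.02 (0.960) and Smad4 at 0.10 (0.462). Zeb2, a SMAD-binding repressor needed for myelination, had 250.6 ± 27.9 and 221.5 ± 32.9 CPM (SD, n = 6 each) and was not called (0.18, adjusted p = 0.226).

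Extracellular antagonists were mostly under the filter. Of 15 genes 3 were tested and 0 were called; Twsg1, a BMP-binding protein, stood at 0.19 (adjusted p = 0.450) and Nbl1, a secreted antagonist, at -0.16 (adjusted p = 0.511). Nog, which encodes the antagonist noggin, had 181 counts over the mild-hypo-OPC libraries and 46 over the standard OPC libraries, and averaged 4.86 ± 1.44 and 4.62 ± 1.84 CPM (SD, n = 6 each). Of 5 other BMP target genes only Hey1 was tested, at 16.1 ± 1.71 and 18.7 ± 2.97 CPM (SD, n = 6 each). Atoh8, another target, stayed under the filter at 6.45 ± 1.02 and 7.29 ± 2.29 CPM (SD, n = 6 each).

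The proteins that Id proteins bind, and the basic helix-loop-helix factors of the lineage, were examined as a list of 11 genes. Of these 7 were tested, 1 was called lower and 0 higher, beside 17.0% and 7.00% of all genes. The median log2 fold change was 0.08. Tcf4, an E protein gene, ranged from 73.9 to 109.2 CPM (median 84.4) in mild-hypo-OPCs and from 93.3 to 125.2 CPM (median 111.8) in standard OPCs, with overlap. Its log2 fold change of -0.32 (SE 0.10, edgeR adjusted p = 0.0246) was lost in 6 of the 12 fits that leave out a library, with adjusted p up to 0.0723. It was also lost with upper-quartile scaling (-0.25, adjusted p = 0.067), without a filter (-0.29, adjusted p = 0.0515), after thinning (-0.23, adjusted p = 0.156) and with replicates 1 to 3 alone (-0.22, adjusted p = 0.365). With the depth covariate the log2 fold change was larger and not called (-0.60, adjusted p = 0.286), and with library size as the only scaling its sign turned (0.12, adjusted p = 0.292). The other E protein genes, Tcf3 (0.03, adjusted p = 0.875) and Tcf12 (0.19, adjusted p = 0.253), were not called, and the difference between these genes was not tested.

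The neighbouring TGF-beta and activin arm, which signals through other SMADs, was represented by 14 genes. Of these 6 were tested, 1 was called higher and 0 lower, beside 7.00% and 17.0% of all genes, with a median log2 fold change of 0.07. The gene called was Tgfbr1, the type I TGF-beta receptor, which ranged from 38.9 to 47.3 CPM (median 42.1) in mild-hypo-OPCs and from 30.0 to 35.9 CPM (median 33.5) in standard OPCs. Every mild-hypo-OPC library stood above every standard OPC library, as for 2.94% of all genes. Its log2 fold change was 0.38 (SE 0.09, edgeR adjusted p = 0.00437), and it was called neither with replicates 1 to 3 alone (0.45, adjusted p = 0.0636) nor with replicates 4 to 6 alone (0.33, adjusted p = 0.156). Smad2, which carries the TGF-beta signal, stood at -0.35 (adjusted p = 0.059), and the ligand gene Tgfb2 at 0.01 (adjusted p = 0.969). Another ligand gene, Tgfb3, was under the filter, at 5.33 to 7.17 CPM in mild-hypo-OPCs and 1.53 to 4.22 CPM in standard OPCs, on 2 to 11 counts in the latter. Without the filter its log2 fold change was 0.97 (SE 0.27, edgeR adjusted p = 0.0101), so the count of 1 called higher depends on the filter.

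**Figure D5:**
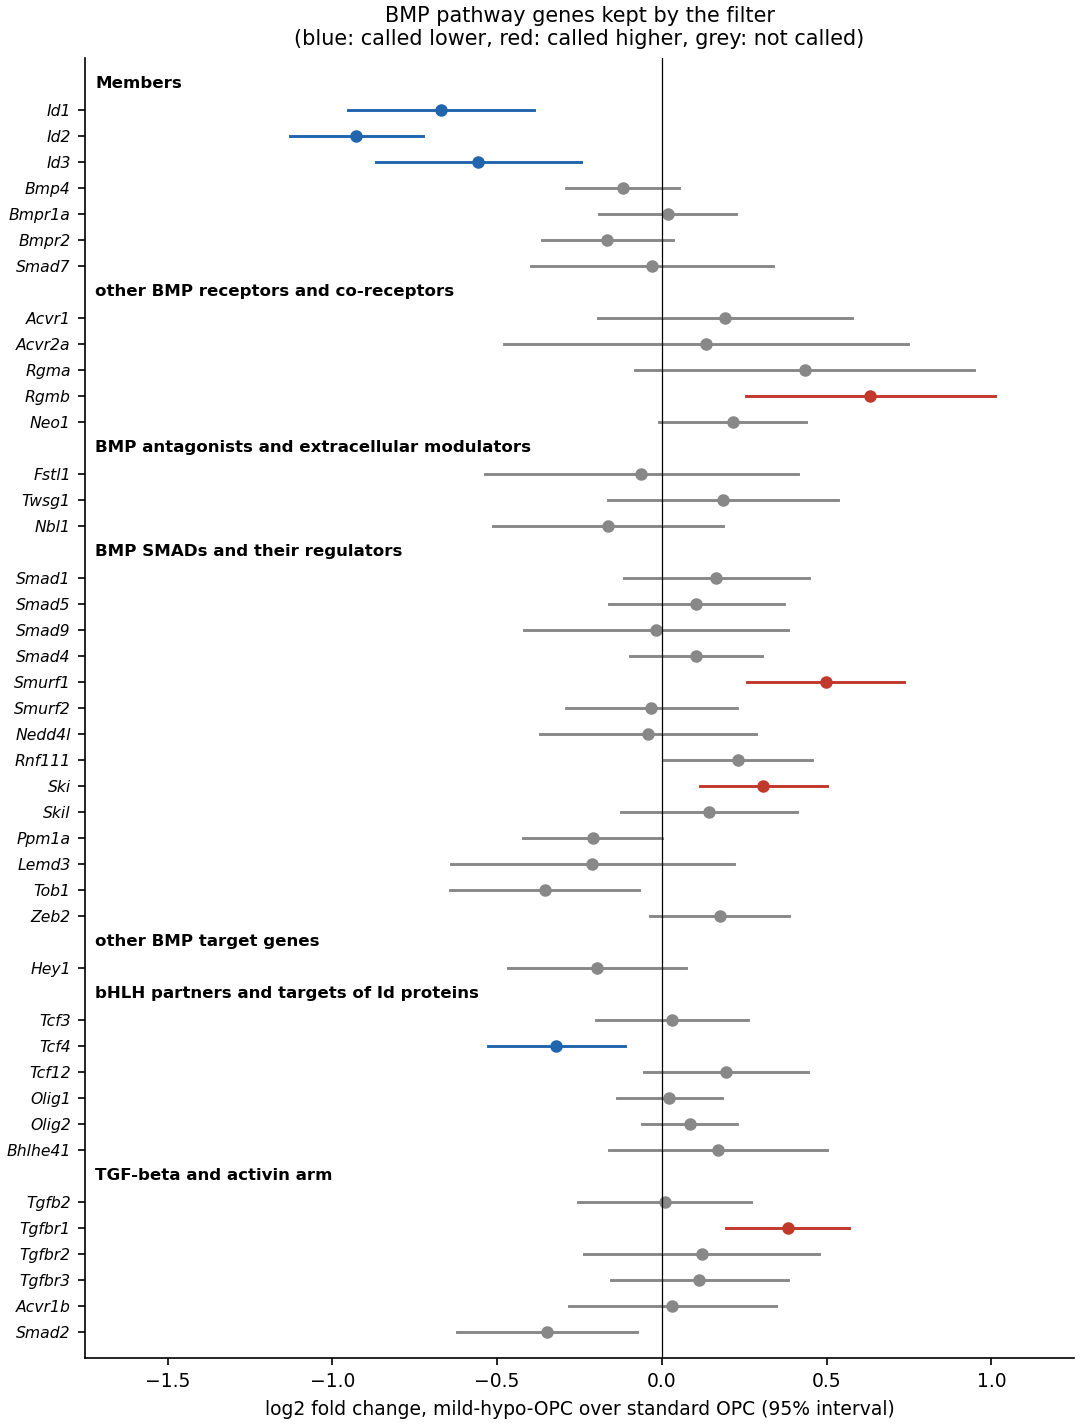
Log2 fold change (mild-hypo-OPC over standard OPC, points) with its 95% interval (bars) of genes that passed the filter: the 7 tested Id and BMP genes, the other BMP pathway lists, the partners of Id proteins and the TGF-beta and activin arm. Id1, Id2, Id3 and Tcf4 (blue) were called lower, Rgmb, Smurf1, Ski and Tgfbr1 (red) were called higher, and grey genes were not called.

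Marker genes were read in the same libraries, since BMP and Id levels differ between cell types. Each count of markers called higher, here and in the next paragraph, stands beside 7.00% of all genes tested. All 6 OPC markers were tested, their summed level was 3004 to 3328 CPM in mild-hypo-OPCs and 2363 to 2788 CPM in standard OPCs, and Gpr17, the marker with the most CPM and one of cells committed to differentiate, was the 1 called higher (log2 fold change 0.45, SE 0.09, edgeR adjusted p = 0.000842). Of the 6 oligodendrocyte markers, 4 were called higher, among them Mag, Myrf and Cnp, and the list, led by Mbp, summed to 12550 to 13820 CPM and 8596 to 12400 CPM. Both cultures therefore held abundant myelin transcripts beside OPC transcripts. Of 6 astrocyte markers 5 were tested and 1, the water channel gene Aqp4, was called higher (0.79, SE 0.13, adjusted p = 0.000287); the sum was 429.1 to 536 CPM and 401 to 459.6 CPM, and Gfap, which gave most of that CPM, was not called (380 ± 31.1 and 351 ± 22.8 CPM, adjusted p = 0.283).

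Of 9 microglia markers 3 were tested and 2, Csf1r and C1qb, were called higher; the sum, led by Csf1r, was 43.6 to 62.1 CPM and 21.2 to 43.8 CPM. Of 6 neuronal markers 4 were tested and 1, Tubb3, was called higher (0.72, SE 0.10, edgeR adjusted p = 0.000181); the sum, led by Tubb3, was 134.1 to 151.2 CPM and 78.6 to 114.7 CPM. The endothelial markers in the table had at most 2 counts in any library, led by Flt1, and 2 of them had no count at all. The mesenchymal markers had at most 17 counts in a library, led by Col1a1. The marker sums that did not overlap, those of OPCs, oligodendrocytes and neurons, were higher in mild-hypo-OPCs. Of single genes tested, 2.94% separated the groups in this direction, and no such share was computed for sums. The oligodendrocyte sums lay close, with 12550 CPM in the lowest mild-hypo-OPC library and 12400 CPM in the highest standard OPC library. Gpr17 (mean 1324 against 967 CPM) gave most of the difference in the OPC sum, and Pdgfra, Cspg4, Sox10, Olig1 and Olig2 were not called. Tubb3 (98.9 against 59.4 CPM) gave most of that in the neuronal sum. The part of these markers in the Id differences was not tested.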

How the data were processed

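Bulk RNA-seq libraries of 6 mild-hypo-OPC and 6 standard OPC samples were analysed, and groups and replicate numbers were taken from the sample labels. The authors trimmed reads with Trimmomatic 0.36, checked them with FastQC 0.11.9, aligned them with STAR 2.7.9a against the mRatBN7.2 assembly and obtained gene values with RSEM 1.3.3; the deposited table holds unnormalized whole-number counts per gene, and 0 columns of values were left unused. How the RSEM estimates became whole numbers is not given in the sources used here, and RSEM divides reads shared by similar genes. Libraries were prepared with a strand-specific kit.

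The 10 genes and the gene lists were chosen with earlier results of these data known, so the adjusted p-values of members are no independent support, and no p was computed over a list. Genes with CPM before TMM scaling above 10 in at least 1 library were tested with edgeR 4.0.16 (TMM, quasi-likelihood, R 4.3.3). Benjamini-Hochberg adjustment was over all 8938 genes. Error bars are SD over libraries and intervals 95%. The test was checked on simulated counts. Alternatives were limma-voom (limma 3.58.1, the test of the study), DESeq2 1.42.0, other scalings and filters, a replicate block, replicates 1 to 3 or 4 to 6 alone, each library left out, thinning, and total count as a covariate. No 2 libraries of a group agreed within sampling noise (chi-square per degree of freedom 3.22 to 19.7). A library's floor of 3 counts was 0.313 to 0.615 CPM in mild-hypo-OPCs and 1.15 to 2.76 CPM in standard OPCs. Genes named were all members; of each list, the called genes (up to 4, by absolute log2 fold change) and the 2 with the highest mean CPM; and, per Id gene, the 3 with the highest centred Pearson r. Further list genes named, such as the SMADs, Nog, Smad2, Tgfb3, Tob1, Ppm1a, Lemd3, Smurf2, Nedd4l, Skil, Rgma, Rnf111, Tcf3 and Tcf12, were chosen after their values were seen. Some genes counted in the lists are not reported here by name. Promoters came from RefSeq (GRCr8). Transcript lengths of the build used were not available here, so levels per length were not computed.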

Additional observations from a re-analysis of the deposited data

Results flagged for a closer look

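In 44 combinations of a described gene and a group, 2 had a library that stood far from the other 5 by Dixon's test for 6 samples, and chance alone flags about 1 in 20 groups. Twsg1 was 17.3 CPM in mild-hypo-OPC replicate 1 and 12.7 to 14.1 CPM in the other 5 libraries (gap over range 0.694). Hey1 was 19.4 CPM in mild-hypo-OPC replicate 6 and 14.5 to 16 CPM in the other 5 (gap over range 0.695). Neither gene was called.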

How the results depend on the processing

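Id1, Id2 and Id3 stayed called lower under limma-voom, DESeq2, upper-quartile scaling, both other filters, removal of ribosomal RNA genes, thinning, replicates 4 to 6 alone, the replicate block and every fit that left out 1 library. The exceptions were library size as the only scaling (1 called lower, 3 higher), replicates 1 to 3 alone (1 lower) and the depth covariate (0 lower; Id2 and Bmpr2 at an unadjusted p under 0.05). Library size alone moved the median of all genes to 0.43, which leaves Id1, Id2 and Id3 at -0.66, -0.92 and -0.55 relative to it; its 3 members called higher were Bmp4 (0.31), Bmpr1a (0.45) and Bmpr2 (0.27).

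Genes called higher, 626 in all, became 1136 with upper-quartile scaling, 5515 with library size alone, 53 with replicates 1 to 3, 385 after thinning and 0 with the covariate (edgeR; 217 at an unadjusted p under 0.05, and 0 and 270 by limma-voom). The 1520 genes called lower became 405, 343 and 43 with library size alone, replicates 1 to 3 and the covariate. The 3 other BMP pathway genes called higher became 15 with library size alone, 0 with replicates 1 to 3, 1 (Smurf1) after thinning and 0 with the covariate; replicates 4 to 6 also gave 3, but these were Smurf1, Neo1 and Rnf111. Leaving out 1 library gave 436 to 823 genes higher and 1165 to 1664 lower, 0 members higher and 3 lower, and 3 to 5 other pathway genes higher and 0 to 1 lower: 5 without standard OPC replicate 1 (Rgma and Rnf111 added) and 1 without standard OPC replicate 4 (Tob1, -0.40). Replicates 4 to 6, as many libraries as replicates 1 to 3, gave 569 genes higher and 1381 lower. The cause of these changes was not tested.

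Signs turned, on the log2 scale, as follows for the members and the rule-named genes of the pathway, partner and TGF-beta lists. With the covariate: Id3 0.39, Bmpr1a -0.17, Neo1 -0.21, Acvr1 -0.16, Nbl1 0.19, Twsg1 -0.28, Zeb2 -0.20, Hey1 0.17 and Tgfb2 -0.62. With library size alone: Bmp4 0.31, Bmpr2 0.27, Smad7 0.40, Nbl1 0.26, Hey1 0.23 and Tcf4 0.12. The further list genes named after their values were seen were not followed under every setting. Of them, Smurf2 (0.40) and Nedd4l (0.39) turned and were called higher with library size alone. Without a filter Smad9 stood at 0.014 and Smurf2 at 0.0019. With the span trend removed: Bmpr1a -0.037, Hey1 0.15 and Tgfb2 -0.050. With replicates 1 to 3: Nbl1 0.24 and Tgfb2 -0.12. With replicates 4 to 6: Bmpr1a -0.10 and Smad7 0.31. After thinning: Bmpr1a -0.049 and Smad7 0.10. Smad7 also stood at 0.036 with upper-quartile scaling and 0.0027 without a filter. Leaving out 1 library gave Bmpr1a -0.017 to 0.10, Smad7 -0.11 to 0.16, Olig1 -0.0033 to 0.092 and Tgfb2 -0.065 to 0.090. Of these, the only genes called in the main test were Id3 and Tcf4.

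Deviations of same-numbered libraries correlated at -0.277 to 0.298 over 6 pairs, and 2 of 12 libraries correlated best with their own number. These values show no general likeness of same-numbered libraries, but cannot tell whether such libraries shared a culture or preparation. With the number as a replicate block, 572 genes were called higher and 1471 lower, 0 members higher and 3 lower, and Smad7 stood at 0.013. Levels per length could not be computed. Among the 10 genes, Smad6 and Bmpr1b had the fewest counts, 29 and 8 over all libraries, and a difference in them was not tested.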
